A study of Mus musculus with 4 samples.

Results

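The genes of the Hippo-YAP pathway were examined in RNA-seq of mouse hearts at postnatal day 7 (P7). The group holds 10 of the 24454 genes in the deposited count table. These are the Hippo kinase and scaffold genes *Stk3*, *Sav1*, *Lats1* and *Lats2*, the effector genes *Yap1*, *Wwtr1* and *Tead1*, and the target genes *Ccn1*, *Ccn2* and *Ankrd1*. The 10 genes were chosen by name from the pathway with the measured values of this same contrast in view, so their levels and fold changes are given as a description and carry no p-value. All 10 passed the filter on low counts, which kept 14266 genes for testing. The 7 kinase, scaffold and effector genes are called the core pathway here and are set against the 3 targets.

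The 4 libraries were WH7 and WH8 from Ctrl hearts, and WH9 and WH10 from miR-128OE hearts. Ctrl mice were *miR-128* TetRE mice, which carry a *miR-128* transgene behind tetracycline-responsive sequences at the Rosa26 locus and have no driver for it. The miR-128OE mice carried the same allele together with α-MHC-tTA, a tetracycline-controlled activator under the cardiomyocyte promoter of α-myosin heavy chain, so that the transgene is switched on in cardiomyocytes (CMs) once doxycycline is withdrawn. Ctrl mice lacked the tTA driver, and its contribution and that of *miR-128* cannot be told apart in this design. The labels do not say whether the 2 libraries of a group came from separate hearts, so that p-values measure the spread between these libraries, which may be technical.

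The libraries held 8096870 to 14359838 counts assigned to genes. Where 0 counts were observed, 3 counts were taken as an approximate upper limit on the expected count, by counting error alone. These 3 counts corresponded to 0.209 to 0.371 CPM (each count divided by its library total and brought to one scale). *Mir128-2* had 0 counts in both Ctrl libraries and 2 and 10 counts in WH9 and WH10, whereas *Mir128-1* had 0 counts in all 4. These few counts check the labels only weakly, and mature *miR-128* was not measured here. Counts of *Xist*, the RNA that coats the inactive X, were 14543 and 11339 in WH7 and WH8 but 94 and 132 in WH9 and WH10, while those of the Y-linked gene *Ddx3y* were 13 and 7 against 1442 and 1768, so that sex and genotype cannot be told apart. Normalized counts are counts scaled to the mean effective library size after correction for composition (TMM). Summed normalized counts of 8 CM markers, such as *Myh6* and *Tnnt2*, were 483991 and 525009 in Ctrl and 610302 and 603059 in miR-128OE hearts, so that the defining transcripts of the labelled tissue were abundant in every library. Among the cell type lists the atrial myocyte markers differed most within a group, with 72849 summed normalized counts in WH7 and 9834 in WH8, against 27814 and 35132 in WH9 and WH10. In whole hearts, a change in the number of cells of a type and a change in RNA per cell cannot be told apart.

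The Hippo pathway is a kinase cascade that limits organ growth. The kinases MST1 and MST2, with the scaffold SAV1, activate LATS1 and LATS2, which phosphorylate the co-activators YAP and TAZ and keep them out of the nucleus. Unphosphorylated YAP and TAZ bind TEAD transcription factors and drive genes such as *Ccn1*, *Ccn2* and *Ankrd1*, and in the neonatal heart YAP promotes CM proliferation. RNA levels of the cascade do not measure phosphorylation, through which it acts.

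TEAD proteins recognise a short element, known in muscle genes as the MCAT motif, which was searched here as GGAATG on either strand of the RefSeq promoter windows (GRCm38.p6), from 250 bases before to 50 bases after each transcription start. The RefSeq table used here held windows for 7 of the 10 genes, and 6 of these 7 held the motif. Counted by window, since *Wwtr1* and *Lats2* have 2 windows each, 7 of 9 held it, compared with 4817 of all 32851 windows (14.7%). The shorter form GGAAT, which lies within every one of these matches, occurred in 38.7% of all windows and is therefore less selective. *Lats1* had a window without the motif, and *Tead1*, *Stk3* and *Ccn2* had no window in the table. The stretches below show how the matches lie in the target genes and in the genes of the core pathway, each written 5′ to 3′ on the strand of the gene, with the motif or its reverse complement (CATTCC) in capitals.

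Ccn1, chr3:145650071-145650100, minus strand: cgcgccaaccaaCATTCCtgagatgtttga
Ankrd1, upstream match, chr19:36120037-36120066, minus strand: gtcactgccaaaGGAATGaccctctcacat
Ankrd1, downstream match, chr19:36119950-36119979, minus strand: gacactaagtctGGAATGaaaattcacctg
Yap1, chr9:8004720-8004749, minus strand: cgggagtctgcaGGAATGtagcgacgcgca
Wwtr1, chr3:57576029-57576058, minus strand: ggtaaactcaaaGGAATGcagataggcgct
Sav1, chr12:69987091-69987120, minus strand: cggctttcccagCATTCCcagcggcgcggg
Lats2, chr14:57746102-57746131, minus strand: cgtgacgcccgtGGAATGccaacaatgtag

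The match in *Ccn1* began 103 bases before the transcription start, and the matches in *Ankrd1* began 210 and 123 bases before it. *Ankrd1* was the only one of the 7 genes with 2 separate matches. *Wwtr1* has 2 overlapping windows that share a single match. A match describes the letters of the window and does not show that TEAD binds there.

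Because the hearts differed in *miR-128*, the 3′ untranslated regions (3′UTRs) were searched for the reverse complement of its seed. Mature mmu-miR-128-3p, which has the same sequence from *Mir128-1* (chr1:128202404-128202424, plus strand) and *Mir128-2* (chr9:112118644-112118664, minus strand) in RefSeq GRCm38.p6, is shown first, with its seed (bases 2 to 8) in capitals. A match to the whole seed reads CACTGTG in the transcript. A match to bases 2 to 7 followed by A reads ACTGTGA. Of 13463 tested genes with an annotated 3′UTR, 4175 (31.0%) held either form in the longest protein-coding 3′UTR (GENCODE M21, GRCm38), as did 4 of the 10 genes, all of them in the core pathway. Their matches are shown on the transcript strand.

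mmu-miR-128-3p: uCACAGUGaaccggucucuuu
Yap1, chr9:7933424-7933453, minus strand: ttgccctctgtgCACTGTGgtgacaacaga
Tead1, chr7:112904581-112904610, plus strand: tctgccttccccCACTGTGtccatgtccag
Lats1, chr10:7715944-7715973, plus strand: gagaagtgcaaaACTGTGAgtggaaatgtt
Lats2, chr14:57691025-57691054, minus strand: ttataaggactgACTGTGAgaaaccatgct

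No match was found in the 3′UTRs of *Ccn1* (690 bases), *Ccn2* (1608 bases), *Ankrd1* (742 bases), *Wwtr1* (3277 bases), *Sav1* (1128 bases) or *Stk3* (1166 bases). Among the 4 genes with a match, *Tead1* has a 3′UTR of 8147 bases, whereas the median over the tested genes was 1199 bases.

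The kinases and their scaffold were compared between Ctrl and miR-128OE hearts first. Of these 4 genes only *Lats2* was called, where a call means an adjusted p under 0.05 in the quasi-likelihood test of edgeR with Benjamini-Hochberg adjustment over all 14266 genes. Over all tested genes 31.5% were called, and nothing is read from the calls of these 4, since they were selected on this contrast. *Lats2* (mm10 coordinates from GENCODE, chr14:57689662-57758388, minus strand) encodes the kinase LATS2 and is itself a known target of YAP and TEAD. It had 653 and 660 normalized counts in Ctrl against 852 and 859 in miR-128OE hearts. The libraries of each group were nearly equal and the groups lay apart, with a log2 fold change of 0.38 (SE 0.08), or 1.30-fold. The annotated exons of *Lats2* share 2955 bases with *Gm49361* on the same strand, a gene model that is not in the count table, and the part of its reads in these values was not tested.

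*Lats1* (chr10:7681214-7716460, plus strand), which encodes the paralogous kinase, had 483 and 601 normalized counts in Ctrl and 465 and 584 in miR-128OE hearts. The groups overlapped almost completely, since the replicates differed by 0.31 and 0.33 on the log2 scale and the fitted change was −0.03 (SE 0.14). *Stk3* (chr15:34875496-35178921, minus strand), which encodes the upstream kinase MST2, had 320 and 295 normalized counts in Ctrl and 348 and 347 in miR-128OE hearts. The groups lay apart by a small margin, and the log2 fold change of 0.17 (SE 0.11) was not called. *Sav1* (chr12:69965012-69987002, minus strand), the gene of the scaffold that joins MST kinases to LATS kinases, had 733 and 770 against 773 and 734 normalized counts. Its groups overlapped and their means were equal to within 0.34%. The exons of *Sav1* share 1336 bases with *Atl1* on the opposite strand, and reads of the 2 genes cannot be told apart unless strand was used in counting.

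The effectors were compared next. *Yap1* and *Wwtr1*, which encode YAP and TAZ, were higher in miR-128OE hearts by 26.8% and 25.5%, whereas *Tead1* did not differ beyond the spread between replicates. *Yap1* (chr9:7931999-8004596, minus strand) had 1148 and 1104 normalized counts in Ctrl and 1514 and 1344 in miR-128OE hearts. The groups lay apart, with a log2 fold change of 0.34 (SE 0.09), or 1.27-fold. *Wwtr1* (chr3:57455649-57575910, minus strand) had 1528 and 1358 against 1946 and 1685 normalized counts. Its groups also lay apart, with a log2 fold change of 0.33 (SE 0.10), or 1.25-fold. Both genes were called, against 31.5% of all tested genes, from which nothing is read since they were selected on this contrast. Both calls depended on how libraries were scaled. With factors from total counts the log2 fold changes were 0.24 and 0.23 and neither gene was called, while the median over all tested genes moved from −0.01 to −0.11. With upper-quartile factors *Wwtr1* (0.28) was not called.

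*Tead1* (chr7:112679318-112906807, plus strand), the gene of a TEAD factor expressed in the myocardium, had 1740 and 2000 normalized counts in Ctrl and 1834 and 1764 in miR-128OE hearts. The 2 miR-128OE libraries lay between the 2 Ctrl libraries, and the fitted change was −0.05 (SE 0.09). *Tead1*, with a seed match in its long 3′UTR, stayed within the Ctrl range, and *Yap1* and *Lats2*, which also hold one, were higher in the miR-128OE libraries. The groups of *Lats1*, the fourth gene with a match, overlapped. Whether *miR-128* acts on any of these genes was not tested.

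The plot of normalized counts by library shows the 10 genes side by side.

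**Figure D1:**
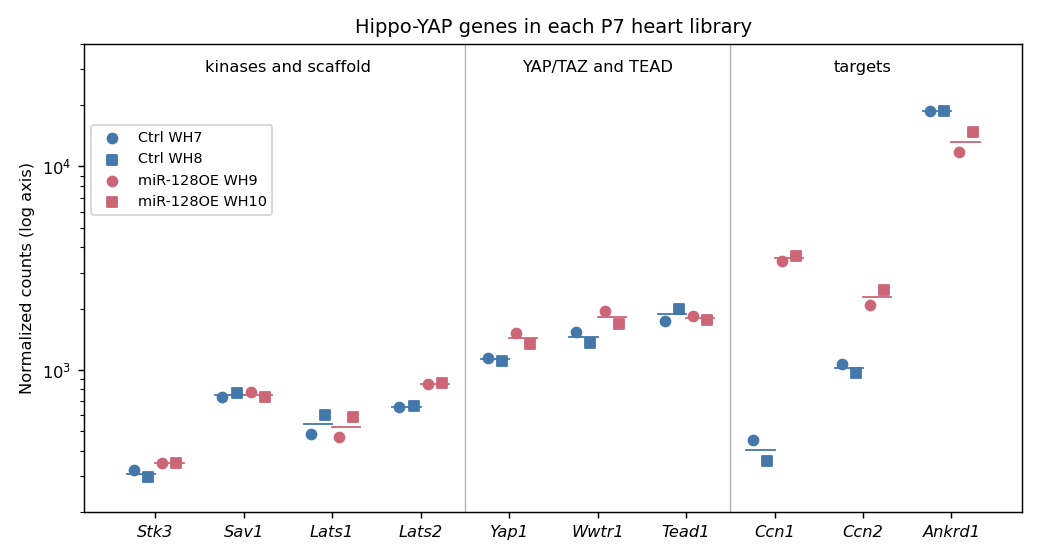
Normalized counts (vertical axis, logarithmic) of the 10 Hippo-YAP genes (horizontal axis) in each P7 heart library, with circles and squares for the 2 libraries of a group, blue for Ctrl, red for miR-128OE, and a short line at each group mean. *Ccn1* rises from 451 and 356 in the Ctrl libraries to 3437 and 3624 in the miR-128OE libraries, *Ankrd1* is the only target that is lower in miR-128OE hearts, and the groups of *Sav1*, *Lats1* and *Tead1* overlap.

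The 3 target genes moved further than the core pathway, and not in one direction. *Ccn1* and *Ccn2* were higher in miR-128OE hearts by 8.67-fold and 2.22-fold, and *Ankrd1* was lower by 29.5%. All 3 were called, against 31.5% of all tested genes, and their groups did not overlap, against 68.1% of tested genes, from which nothing is read since the genes were selected on this contrast.

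*Ccn1* (chr3:145646976-145649981, minus strand) encodes CYR61, a secreted matricellular protein that binds integrins and is among the most used reporters of YAP activity. Its counts were 493 and 252 in Ctrl and 3471 and 4309 in miR-128OE hearts, which gave 451 and 356 against 3437 and 3624 normalized counts. The means were 404 ± 66.9 and 3530 ± 133 (SD, n = 2 each). Both miR-128OE libraries exceeded both Ctrl libraries many times over, with a log2 fold change of 3.12 (SE 0.11). Ordered from the highest fold change down, *Ccn1* was at place 27 of the 14266 tested genes.

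*Ccn2* (chr10:24595442-24598683, plus strand) encodes CTGF, a related matricellular protein linked to fibrosis. It had 1073 and 967 normalized counts in Ctrl and 2088 and 2455 in miR-128OE hearts, with means of 1020 ± 74.9 and 2272 ± 260 (SD, n = 2 each). The lowest miR-128OE library thus lay well above the highest Ctrl library, with a log2 fold change of 1.15 (SE 0.10) and place 232 in the same order. Its exons share 665 bases with *Gm15270*, a transcript on the opposite strand that is not in the count table.

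*Ankrd1* (chr19:36111961-36120099, minus strand) encodes CARP, a muscle ankyrin repeat protein of the sarcomere and nucleus that is expressed in CMs and responds to stretch. It had 18767 and 18734 normalized counts in Ctrl and 11717 and 14734 in miR-128OE hearts. The Ctrl libraries were practically equal, although their atrial marker sums differed widely, and both miR-128OE libraries were lower but differed between themselves by 0.33 on the log2 scale. The log2 fold change was −0.50 (SE 0.11).

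In total, 6 of the 10 genes were called, against 31.5% of all tested genes. Of these, 5 were higher, against 16.5% of tested genes called higher, and 1 was lower, against 15.0% called lower. The groups did not overlap for 7 of the 10 genes, against 68.1% of tested genes. Since the genes were selected on this contrast, nothing is read from these counts. With total counts for scaling, the share of higher genes among all calls fell from 52.3% to 35.3%, and 4 of the 10 genes were called.

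The median log2 fold change of the 7 core genes was 0.17 and that of the 3 targets, which is the value of *Ccn2*, was 1.15. Per library, the median of the core genes minus that of the targets, each relative to the Ctrl mean, was −0.08 in WH7, 0.08 in WH8, −0.86 in WH9 and −1.09 in WH10. The miR-128OE libraries lay apart from the Ctrl libraries on this measure, from which nothing is read since the genes were selected on this contrast. The direction rests on *Ccn1* and *Ccn2*, as *Ankrd1* moved the other way.

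Calls of *Yap1*, *Wwtr1*, *Lats2* and *Ankrd1* changed when single libraries were left out, as did the number called over all tested genes. Without WH9, *Yap1* (0.27), *Wwtr1* (0.23), *Lats2* (0.40) and *Ankrd1* (−0.33) kept their direction but lost the call. The log2 fold change of *Lats2* went from 0.38 to 0.40 there, while its SE grew from 0.08 to 0.13. *Lats2* also lost its call without WH10 (0.39), and *Wwtr1* without WH8 (0.25).

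The plot of change against replicate spread sets these differences beside the scatter between libraries of one group.

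**Figure D2:**
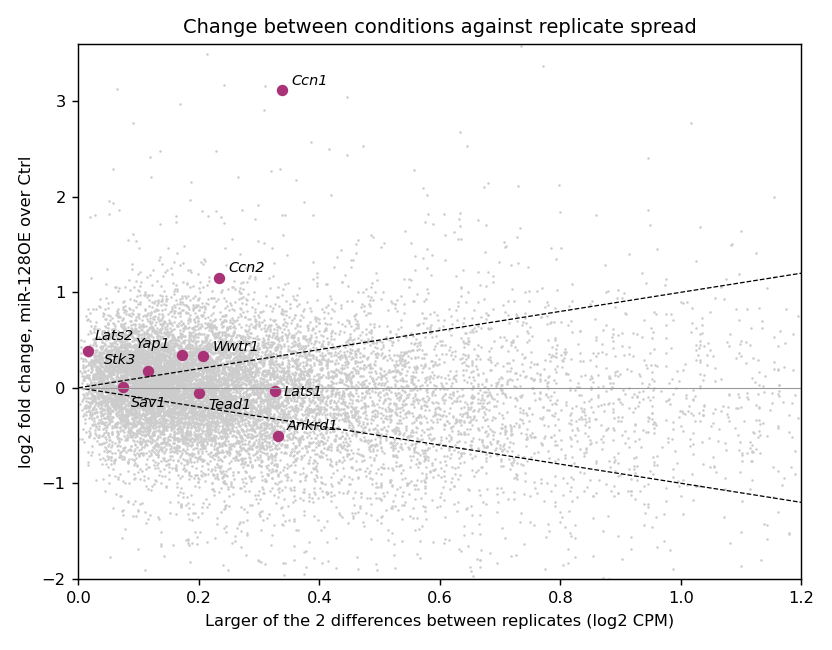
Fitted log2 fold change, miR-128OE over Ctrl (vertical axis), against the larger of the 2 differences between replicates in log2 CPM (horizontal axis) for 13822 tested genes (grey) and the 10 Hippo-YAP genes (purple, labelled), with 444 genes outside the axes, and dashed lines where the change equals the replicate difference. *Ccn1* and *Ccn2* lie far above the upper line, *Ankrd1* lies below the lower line, and *Sav1*, *Tead1* and *Lats1* lie between the lines.

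Levels of different genes were compared per kilobase of annotated exon on the CPM scale. In Ctrl hearts *Ankrd1* was the most abundant of the 10 genes, with a per-length level of 552 ± 0.69 (SD, n = 2). *Ccn2* followed at 30.3 ± 2.2, *Wwtr1* at 25.7 ± 2.1 and *Ccn1* at 17.0 ± 2.8. The remaining 6 genes lay between 4.28 (*Stk3*) and 12.1 (*Sav1*), and among them *Sav1* and *Tead1* (11.7) overlapped. In miR-128OE hearts *Ccn1* took the place behind *Ankrd1* (389 ± 62.8), with a per-length level of 149 ± 5.6 that passed *Ccn2* (67.4 ± 7.7) and *Wwtr1* (32.3 ± 3.3). The next 2 genes, *Yap1* (13.1) and *Sav1* (12.2), overlapped between libraries. With the length of the longest annotated transcript in place of all exons, *Ccn1* in Ctrl hearts fell behind *Sav1* and *Yap1*, and the first 8 places in miR-128OE hearts were the same.

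Ratios of per-length levels within a library showed which genes kept their proportion. *Wwtr1* over *Yap1* was 2.58 and 2.38 in Ctrl and 2.49 and 2.43 in miR-128OE hearts, so that the co-activator genes stayed in the same proportion. The size of this ratio depends on the length used. Ctrl means of *Wwtr1* and *Yap1* were 25.7 and 10.3 with all exons, but 26.1 and 18.1 with the longest transcript. *Lats2* over *Lats1* was 1.42 and 1.15 against 1.92 and 1.54. *Ccn1* over *Ccn2* was 0.596 and 0.522 against 2.33 and 2.09, and the order of the CCN targets was therefore inverted in both miR-128OE libraries. *Ankrd1* exceeded *Ccn1* by 29.1 and 36.8 times in Ctrl and by 2.39 and 2.84 times in miR-128OE hearts. These ratios are a description only, since the genes were selected on this contrast.

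The other genes of the pathway were taken from lists compiled from general knowledge of the cascade. Of 47 tested genes on 4 lists, 7 were called higher and 13 lower, and their median log2 fold change was −0.05, against −0.01 over all tested genes. The share called (42.6%) is to be read against 31.5% of all genes. The counts on each list below are to be read against 16.5% of all tested genes called higher and 15.0% called lower. With total counts for scaling, 6 were called higher and 16 lower. Fewer were called without WH9 or without WH10, as was the case over all tested genes.

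Among 12 further kinases and adaptors, 1 was called higher and 4 lower (median −0.13). *Stk4*, which encodes MST1, the paralog of MST2, was not called (log2 fold change 0.04, SE 0.12, adjusted p = 0.844 by the edgeR quasi-likelihood test). *Stk38* and *Stk38l* encode NDR1 and NDR2, kinases related to LATS. *Stk38* fell by 0.59 on the log2 scale (SE 0.10, adjusted p = 0.00283 by edgeR) and *Stk38l* rose by 0.34 (SE 0.10, adjusted p = 0.0275 by edgeR), so that the paralogs moved in opposite directions. *Map4k2* (−0.59, SE 0.12, adjusted p = 0.00467 by edgeR) and *Map4k4* (−0.29, SE 0.09, adjusted p = 0.0298 by edgeR), whose kinases act on LATS in parallel to MST1 and MST2, fell. Without WH9 none of *Stk38* (−0.44), *Map4k2* (−0.42), *Map4k4* (−0.28) and *Stk38l* (0.40) was called, and the last also lost its call without WH7 (0.29), without WH10 (0.31), with total counts (0.24) and with the DESeq2 test (0.34). *Map4k4* also lost its call without WH8 (−0.21) and without WH10 (−0.26).

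Of 20 upstream regulators, 2 were called higher and 5 lower (median −0.12). *Amotl1* encodes an angiomotin, a junction protein that binds YAP. It fell from 2487 and 2398 normalized counts in Ctrl to 1603 and 1514 in miR-128OE hearts, with the groups well apart (log2 fold change −0.65, SE 0.08, adjusted p = 0.000453 by edgeR). *Dag1* encodes dystroglycan, a membrane component of the dystrophin complex that binds YAP in CMs. It rose from 1776 and 1555 to 3103 and 2859 normalized counts (0.84, SE 0.09, adjusted p = 0.000279 by edgeR). *Cdh2*, the gene of N-cadherin of the intercalated disc, rose by 0.43 (SE 0.09, adjusted p = 0.00658 by edgeR). *Ajuba*, whose LIM protein restrains LATS, fell by 0.43 (SE 0.11, adjusted p = 0.0166 by edgeR). The tumour suppressor gene *Nf2*, whose product merlin activates LATS, was not called (0.12, SE 0.08, adjusted p = 0.294 by edgeR). Without WH9, *Cdh2* (0.40) and *Ajuba* (−0.37) were not called, nor was *Ajuba* without WH10 (−0.46) or with the DESeq2 test (−0.42).

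The STRIPAK complex is a phosphatase assembly that switches off MST1 and MST2. Of its 10 genes, 4 were called higher and 2 lower (median 0.05). *Slmap*, the adaptor that brings MST kinases to the complex, rose by 0.65 (SE 0.08, adjusted p = 0.000471 by edgeR), from 1865 and 2011 to 3061 and 3024 normalized counts. *Ppp2ca*, the catalytic subunit of phosphatase 2A, rose by 0.55 (SE 0.08, adjusted p = 0.00146 by edgeR), and *Sike1*, the partner of SLMAP, rose by 0.46 (SE 0.10, adjusted p = 0.00666 by edgeR). The genes *Strip2* (−0.46, adjusted p = 0.013 by edgeR) and *Strn3* (−0.26, adjusted p = 0.0307 by edgeR), which encode scaffold components of the complex, fell. Of these, *Sike1* (0.46), *Strip2* (−0.48) and *Strn3* (−0.20) were not called without WH9, nor were *Strip2* (−0.42) and *Strn3* (−0.29) without WH10, and *Strn3* was not called with the DESeq2 test (−0.26).

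The other TEAD genes were lower than in Ctrl where they were called. *Tead3* fell from 820 and 886 normalized counts in Ctrl to 415 and 521 in miR-128OE hearts (log2 fold change −0.86, SE 0.12, adjusted p = 0.000801 by edgeR). *Tead2* fell from 962 and 752 to 558 and 625 (−0.54, SE 0.12, adjusted p = 0.00956 by edgeR), with no call without WH9 (−0.45). *Tead4* (−0.12) and the TEAD cofactor genes *Vgll3* (0.04) and *Vgll4* (0.35) had few counts and were not called, *Vgll1* had 0 counts in every library, and *Vgll2* did not pass the filter. The *Tead1* share of the summed per-length level of the 4 TEAD genes was 27.2% and 32.9% in Ctrl against 40.8% and 37.2% in miR-128OE hearts. With the longest transcript as length it was 24.3% and 29.0% against 37.6% and 33.7%. *Yap1* and *Wwtr1* together amounted to 0.943 and 0.902 of the TEAD sum in Ctrl and to 1.72 and 1.42 in miR-128OE hearts, a ratio computed with all annotated exons only. The groups lay apart on both measures, from which nothing is read since *Yap1*, *Wwtr1* and *Tead1* were selected on this contrast.

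Further target genes of YAP and TEAD, known mostly from cultured cells, were examined as a further list, compiled by name. *Ajuba*, *Amotl2* and *Ptpn14* stand on this list and among the upstream regulators, so that the lower calls of *Ajuba* and *Ptpn14* are counted in both. Of 33 genes 31 were tested, and 2 were called higher and 5 lower (22.6%, against 31.5% of all genes), around a median log2 fold change of 0.003. *Foxf2* and *Areg* did not pass the filter. The fold changes of *Ccn1* and *Ccn2* lay above the highest value on this list, which was 0.37 (SE 0.10, adjusted p = 0.024 by edgeR) for *Axl*, the gene of a receptor tyrosine kinase. Nothing is read from that order, since *Ccn1* and *Ccn2* were selected on this contrast. *Tgm2*, a transglutaminase gene, rose by 0.26 (adjusted p = 0.0422 by edgeR). *Birc5*, which encodes the mitotic protein survivin, fell by 0.59 (SE 0.16, adjusted p = 0.0205 by edgeR), and *Rbms3*, the gene of an RNA-binding protein, fell by 0.53 (SE 0.08, adjusted p = 0.00175 by edgeR).

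The split of the calls on the list of further targets depended on the setting. With total counts all 5 called genes were lower, and without WH7 5 were higher and 4 lower. The DESeq2 test called 3, and fewer were called without WH9 or without WH10, as was the case over all tested genes. *Axl* (0.27) and *Tgm2* (0.16) lost their calls with total counts, as did both without WH9 (0.41 and 0.26) and without WH10 (0.36 and 0.30), and *Tgm2* also without WH8 (0.18), with upper-quartile factors (0.22) and with the DESeq2 test (0.27). *Birc5* lost its call without WH8 (−0.36), WH9 (−0.70) or WH10 (−0.45).

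**Figure D3:**
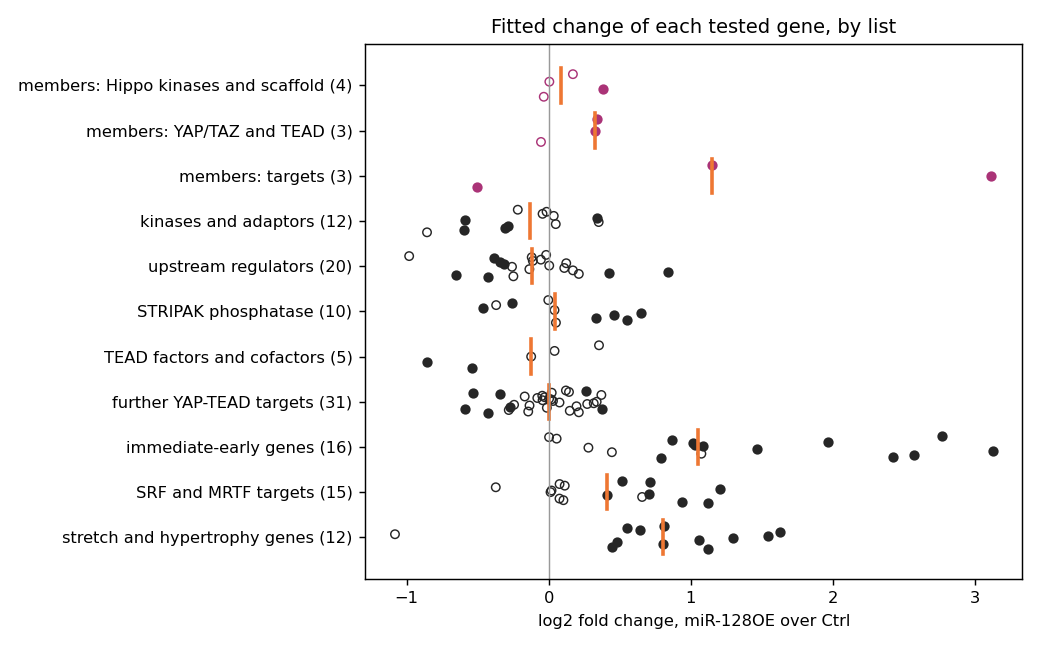
Fitted log2 fold change, miR-128OE over Ctrl (horizontal axis), of every tested gene of the Hippo-YAP group (purple) and of 8 further gene lists (black), with the number of tested genes in brackets, filled points for called genes, open points for genes not called and an orange line at each median. The further YAP-TEAD targets centre on 0.003, whereas the immediate-early genes centre on 1.05 and reach as high as *Ccn1*.

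The families of the target genes did not move together. Of the other CCN genes, *Ccn4*, which encodes WISP1, fell from 804 and 455 normalized counts in Ctrl to 271 and 348 in miR-128OE hearts (log2 fold change −1.04, SE 0.23, adjusted p = 0.00845 by edgeR). It was not called without WH9 (−0.86) nor by DESeq2 (−1.02). *Ccn3* had 766 and 476 against 620 and 921 normalized counts (0.30, SE 0.22, adjusted p = 0.332 by edgeR), and its groups overlapped. Without WH7 *Ccn3* was called (0.70). *Ccn5* had 83.2 and 21.2 against 39.6 and 64.8 normalized counts (−0.07, SE 0.49, adjusted p = 0.922 by edgeR), with a replicate spread too wide for a direction. *Ccn6* did not pass the filter. Of the muscle ankyrin repeat family, to which *Ankrd1* belongs, *Ankrd23* rose from 1505 and 1736 to 2772 and 3027 normalized counts (0.84, SE 0.09, adjusted p = 0.000296 by edgeR), opposite in direction to *Ankrd1*, and *Ankrd2* had too few counts to be tested.

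*Ccn1* and *Ccn2* are also known as early response genes and as targets of serum response factor (SRF), and *Ankrd1* as a stretch-responsive gene, so the lists of these programs were counted in the same way. Their choice followed earlier results of these data, and they are no independent evidence of a direction. Of 16 immediate-early genes, which are transcribed within minutes of a stimulus, 11 were called higher (68.8%, against 16.5% of all tested genes, median 1.05). The lowest log2 fold change on the list was 0.003. The edgeR quasi-likelihood test gave the smallest adjusted p for *Nr4a1*, a nuclear receptor gene, with 227 and 230 normalized counts in Ctrl and 1512 and 1610 in miR-128OE hearts (log2 fold change 2.77, SE 0.09, adjusted p = 4.04e-07). *Fos*, which encodes a subunit of AP-1, rose by 3.13 (SE 0.13, adjusted p = 1.36e-06 by edgeR), a fold change equal to that of *Ccn1* within its SE, and *Dusp1*, a phosphatase gene that shuts off MAP kinases, rose by 2.42 (SE 0.08, adjusted p = 4.85e-07 by edgeR).

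Of 15 targets of SRF and its cofactor MRTF, 7 were called higher (46.7%, against 16.5% of all tested genes, median 0.41). By library, the median level of this list relative to the Ctrl mean differed between the miR-128OE libraries. On the log2 scale it was 0.06 in WH7, −0.06 in WH8, 0.15 in WH9 and 0.54 in WH10. *Srf* itself rose from 854 and 796 to 1935 and 1887 normalized counts (1.21, SE 0.08, adjusted p = 2.74e-05 by edgeR). The actin genes *Acta1* (1.12, adjusted p = 4.93e-05 by edgeR) and *Acta2* (0.94, adjusted p = 0.00029 by edgeR) rose as well. Of 12 stretch and hypertrophy genes, 11 were called higher (91.7%, against 16.5% of all tested genes, median 0.81). *Acta1* stands on this list too and is counted in both. Also called higher were the heat shock genes *Hspb7* (1.30, adjusted p = 3.35e-05 by edgeR) and *Hspb1* (1.06, adjusted p = 4.1e-05 by edgeR). *Nppa*, which is also one of the atrial markers, was not called (−1.08, SE 0.78, adjusted p = 0.32 by edgeR). *Ankrd1* thus moved opposite to the called genes of the stretch list.

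In the promoter windows of the 7 genes that have one, neither the CArG box, which SRF binds (in 1.63% of all windows), nor the AP-1 motif TGANTCA (7.81%) was found, a search added after the values were known. These windows are short, and the absence of the letters there says nothing about either factor.

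**Figure D4:**
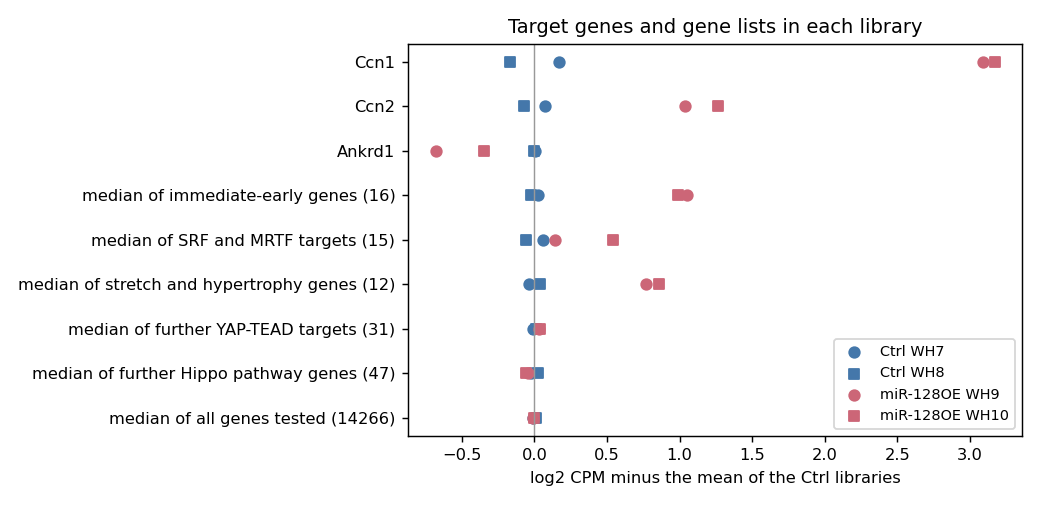
Level of the 3 target genes, and median level of 6 gene sets with the number of genes in brackets, in each library as log2 CPM minus the mean of the Ctrl libraries (horizontal axis), blue for Ctrl and red for miR-128OE, with circles and squares for the 2 libraries of a group. The immediate-early median is 1.05 in WH9 and 0.99 in WH10, the median of the further YAP-TEAD targets is 0.03 and 0.04, and *Ankrd1* is −0.68 and −0.35.

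Markers of other cell types were summed beside these genes, since *Ccn1* and *Ccn2* are expressed in vascular cells and fibroblasts as well as in CMs. Calls among the markers are to be read against 16.5% of all tested genes called higher and 15.0% called lower. Of 8 fibroblast markers 1 was called higher, and their summed normalized counts were 117142 and 76106 in Ctrl and 103176 and 111803 in miR-128OE hearts, an overlap of the groups. Of 8 smooth muscle and pericyte markers 3 were called higher and 1 lower, and the sums were 23827 and 22412 against 29099 and 32775, with the groups apart. *Acta2*, which is also on the list of SRF targets, made up most of that difference, with 7382 and 6815 against 12481 and 14753 normalized counts. *Abcc9* (log2 fold change 0.43) and *Rgs5* (0.29) were also called higher, and *Myh11* was called lower (−0.64). The other markers on this list were not called. The endothelial sums were 18178 and 18036 against 19974 and 18871, with 2 of 8 called higher and 1 lower. Epicardial and macrophage sums overlapped or were lower, with 1 of 16 markers called, in the lower direction. Erythroid markers summed to 527 and 377 against 924 and 842, with the groups apart, and 1 of the 3 tested was called higher. The 4 globin genes on this list were at 0 in every library, and the cause was not tested. The CM marker sums were higher in miR-128OE hearts, opposite in direction to *Ankrd1*, with 3 of 8 markers called higher and 1 lower. The part of cell makeup in these results was not tested.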

How the data were processed

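RNA-seq libraries of P7 hearts (2 Ctrl, 2 miR-128OE) were analyzed from the deposited table of raw read counts per Entrez gene. The submitters' processing notes name bcl2fastq, TopHat, edgeR and the build mm10. Gene-level counting by the authors relied on Bioconductor, after a quality filter. The gene models, the use of strand and the treatment of multi-mapping reads are not given in the sources used here, so values of genes with overlapping exons or close paralogs are uncertain. Of 24454 genes, 24374 were matched to RefSeq symbols.

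Genes were filtered with filterByExpr (minimum count 10, minimum total 15), scaled by trimmed mean of M values (TMM) and tested with the quasi-likelihood test of edgeR 4.0.16 in R 4.3.3, with no covariate, and p-values were adjusted by Benjamini-Hochberg over all 14266 genes tested. The common biological coefficient of variation was 8.78%. Normalized counts are counts divided by the TMM-scaled effective size of their library and multiplied by the mean effective library size. The fit was tested on simulated data. DESeq2 1.42.0, other scalings and filters, and leaving out each library served as alternatives.

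The 10 genes and the lists were chosen with earlier results of these data known. Besides the 10 genes, the text names up to 3 called genes per list and direction with the smallest p, the CCN and muscle ankyrin repeat families, and *Stk4*, *Nf2*, *Tead4*, *Vgll3*, *Vgll4*, *Nppa*, *Amotl2*, *Ptpn14*, *Myh11*, *Rgs5* and *Abcc9*, which were added after their values were seen. A gene that this rule would name is not reported here.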

Additional observations from a re-analysis of the deposited data

How the results depend on the processing

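The number of genes called, 4490, ranged from 1564 to 5038 when 1 library was left out, a fit in which the lone library of a group is assumed to vary like the other group, and was 3124 with the DESeq2 test. Of the 10 Hippo-YAP genes 6 were called, and 2 to 6 when 1 library was left out. The further Hippo pathway genes gave 5 to 20 calls, and the further YAP-TEAD targets 1 to 9 calls, with 1 library left out, and the latter gave 3 with the DESeq2 test. *Ccn5* reversed without WH7 and ranged from −0.65 to 1.31. *Ccn1* ranged from 2.97 to 3.31 and *Ccn2* from 1.05 to 1.28 over the same fits, and both were called in each. The difference between core pathway and target medians kept its direction in every setting run. As these genes were selected on this contrast, nothing is read from that. Of the 32 other named genes, *Ccn3* and *Ccn5* were not called with the main settings, and many of the rest lost their call without WH9. The cause of these changes was not tested. The share of calls in the higher direction was 44.2% with upper-quartile factors. Per-length levels, as means over the 4 libraries, moved for 7 of 10 genes with the longest transcript: *Yap1* 20.5, *Tead1* 15.6, *Lats2* 12.4, *Sav1* 19.0, *Stk3* 8.45, *Ccn2* 56.1 and *Ankrd1* 672. No paired analysis was possible because no label links a Ctrl library to a miR-128OE library. A gene that was not called is not shown to be equal.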
